A study of Mus musculus with 16 samples.

Results

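The 52 mRNAs described here encode the subunits of the receptors for glutamate, GABA and glycine, and they were chosen by gene symbol from the 21878 mRNAs of the count table. They comprised 26 glutamate receptor subunits, namely 4 AMPA, 5 kainate, 7 NMDA, 2 delta and 8 metabotropic subunits, and 26 subunits of inhibitory receptors, namely 19 GABA-A, 2 GABA-B and 5 glycine subunits. Of the 52, 51 had 16 or more counts summed over all libraries and were tested. RNA was sequenced from cells labelled as microglia, sorted as CD11b+/CD45int from mouse brain, with 1 library for each of 16 mice. All mice were 8-week-old female C57BL/6 mice of WT genotype. The 8 mice of the EAE group had experimental autoimmune encephalomyelitis, a model of multiple sclerosis, induced with the myelin peptide MOG (residues 35 to 55) in complete Freund's adjuvant and with 200 ng of pertussis toxin on days 0, 2 and 7, and the 8 controls received PBS. In the treatment field of the labels the last peptide residue rose by 1 from mouse to mouse, from 55 to 62. Since adjuvant and toxin went with the peptide, their effects and those of the disease cannot be told apart. Each library held 24587443 to 34184576 counts, of which 0.881% to 1.10% fell on the subunits.

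AMPA, kainate and NMDA receptors are tetrameric cation channels opened by glutamate and carry most fast excitation in the brain, whereas metabotropic glutamate receptors signal through G proteins. GABA-A and glycine receptors are pentameric chloride channels that mediate fast inhibition, and the GABA-B receptor is an obligate dimer of G protein-coupled subunits. Most of these subunits are known from neurons, and some metabotropic receptors, GABA-B receptors and transporters are also known from glia.

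The labelled cell type was first checked against marker genes. In every library the summed FPKM (fragments scaled to transcript length and to the mapped fragments of the library) of 15 neuronal markers was above that of 17 microglial markers, by a factor of 3.94 to 7.92. The neuronal sum had a median of 1627 FPKM in EAE libraries against 1797 in PBS libraries. Lower in EAE mice were 4 of the 15 neuronal markers, namely Syt1, Syp, Thy1 and Scg2, beside 1.76% of all mRNAs. With 1 library left out, the number of lower neuronal markers ranged from 1 (such as without EAE 2) to 5 (such as without EAE 4). The microglial sum had a median of 325 FPKM in EAE libraries against 249.7 in PBS libraries, and the groups overlapped widely. It ranged from 229 to 371 FPKM in EAE libraries and from 211 to 348 FPKM in PBS libraries. Of the microglial markers, Trem2 and Itgam were higher in EAE mice. Transcripts of neurons were thus abundant in libraries labelled as microglia, and the receptor levels below are those of the whole RNA of each library. In such bulk samples, fewer cells of a type and less RNA per cell cannot be told apart.

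Of the 51 subunits tested, 6 passed the test, and all 6 were lower in EAE mice compared with PBS-treated mice. The 5 described here were Grin2c, Gabrd, Gabbr1, Grm4 and Glrb, with log2FC values from -0.32 to -0.16. Among all 17885 mRNAs tested, 2.42% passed in either direction, 1.76% as lower and 0.66% as higher, against 11.8% of the subunits. The test was the quasi-likelihood test of edgeR, and a subunit passed at a p under 0.05 after Benjamini-Hochberg adjustment across all mRNAs tested. No subunit was a DEmRNA, which also requires a |log2FC| over 1, a call made for 0.117% of all mRNAs. DESeq2 likewise called 0 subunits as DEmRNAs, and 0 subunits passed at an unadjusted p under 0.05 with a |log2FC| over 1. No subunit had every EAE library below every PBS library, which 0.101% of all mRNAs did.

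The promoters of 3 of these genes, those with an entry in the RefSeq table used, are shown so that the sequence next to subunits lowered together can be compared. They come from RefSeq on GRCm38.p6 and run from 250 bases before to 50 bases after the start of the transcript, written 5′ to 3′ on the strand of the gene. Capitals mark the motifs found. These are the GC box GGGCGG and the right part of RE1, GGACAGC, on either strand. RE1 is the element bound by the repressor REST, which silences many neuronal genes outside neurons.
Grin2c, chr11:115267194-115267493, minus strand: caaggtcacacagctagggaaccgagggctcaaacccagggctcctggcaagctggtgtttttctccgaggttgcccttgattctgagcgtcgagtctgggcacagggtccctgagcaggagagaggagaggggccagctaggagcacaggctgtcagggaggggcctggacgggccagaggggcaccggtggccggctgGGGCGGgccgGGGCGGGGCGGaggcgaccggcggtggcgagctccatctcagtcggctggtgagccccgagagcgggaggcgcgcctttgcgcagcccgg
Gabbr1, chr17:37045716-37046015, plus strand: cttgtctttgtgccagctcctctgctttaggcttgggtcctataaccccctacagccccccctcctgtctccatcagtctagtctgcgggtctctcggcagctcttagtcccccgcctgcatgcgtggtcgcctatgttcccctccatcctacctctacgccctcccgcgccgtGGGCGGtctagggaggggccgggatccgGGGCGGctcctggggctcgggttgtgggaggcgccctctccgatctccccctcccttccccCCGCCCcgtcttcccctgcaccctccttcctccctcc
Glrb, chr3:80913611-80913910, minus strand: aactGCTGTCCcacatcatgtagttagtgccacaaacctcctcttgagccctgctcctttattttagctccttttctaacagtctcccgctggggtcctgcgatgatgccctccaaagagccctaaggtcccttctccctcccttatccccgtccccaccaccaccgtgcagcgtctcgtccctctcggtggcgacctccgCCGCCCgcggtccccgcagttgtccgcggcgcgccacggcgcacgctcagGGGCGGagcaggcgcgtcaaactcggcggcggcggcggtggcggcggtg
Grin2c and Gabbr1 each held 3 GC boxes, the last 2 of Grin2c overlapping by their ends, and Glrb held 2 GC boxes and 1 RE1 right part. The RefSeq table held promoters for 36 of the 52 subunit genes, and 21 of the 36 (58.3%) had a GC box, against 38.2% of the 27025 genes in the table. The RE1 right part was present in 4 of 36, in Glra2, Glrb, Gria2 and Grm2, against 7.59% of all genes. The left part of RE1, TTCAGCACC, was found only in Grm2 among the 36, the NRF-1 core GCGCATGC only in Gabrb1, and the CRE TGACGTCA in none. These are matches of letters in a window and not measured sites.

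By neurotransmitter and in FPKM, the glutamate receptor subunits summed to nearly equal levels in both groups. The GABA and glycine receptor subunits summed to less FPKM in EAE mice. The 26 glutamate receptor subunits summed to 955 ± 45.8 FPKM in EAE mice against 959 ± 43.5 in PBS-treated mice (SD, n = 8 each). The 26 inhibitory subunits summed to 602 ± 37.0 FPKM in EAE mice against 661 ± 34.7 in PBS-treated mice. The ratio of the inhibitory to the glutamate sum was 0.593 at its lowest, 0.624 at the median and 0.694 at its highest in EAE libraries, against 0.634, 0.690 and 0.750 in PBS libraries. In this ratio 4 EAE libraries lay below every PBS library, and EAE 4, the highest EAE library, lay near the PBS median. FPKM lacks the TMM scaling used in the edgeR test, and with that scaling the EAE levels were lower relative to PBS. All subunits together summed to 1557 FPKM in EAE mice against 1620 in PBS-treated mice, and to 1530 against 1648 with TMM scaling. The near-equality of the glutamate sums therefore holds for FPKM only, while the ratio does not depend on this scaling. These sums are descriptions over chosen members and were not tested.

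**Figure D1:**
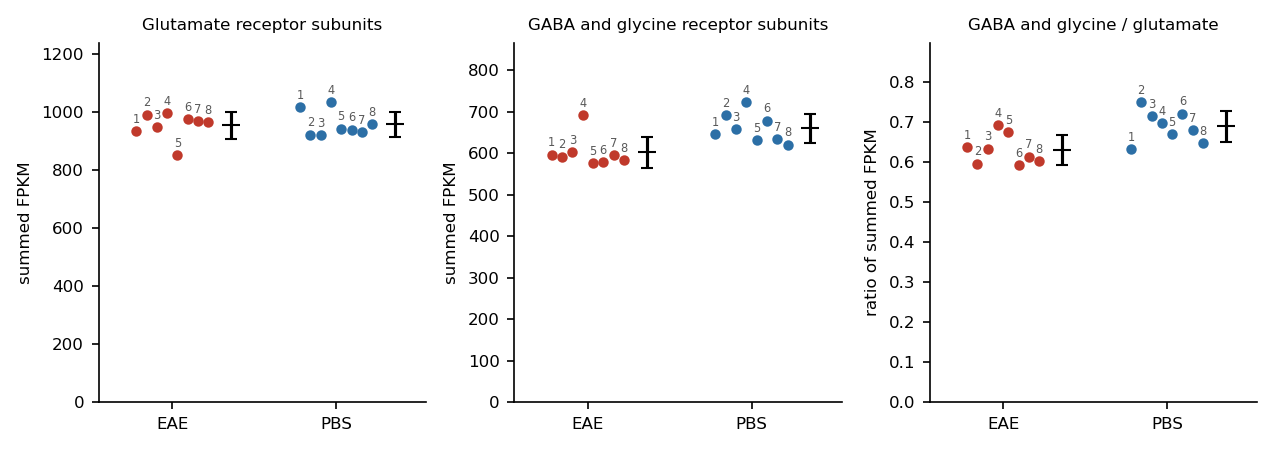
Summed FPKM of the 26 glutamate and the 26 GABA and glycine receptor subunits and the ratio of the sums, with 1 point per library labelled by replicate number and the mean ± SD of 8 beside each group. The glutamate sums overlap between the groups, 853 to 996 against 921 to 1034 FPKM, while 7 of the 8 EAE libraries lie below the PBS libraries in the inhibitory sum and EAE 4 lies among them at 691 FPKM.

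Of the 51 subunits, 38 (74.5%) had a log2FC below 0, against 47.3% of all mRNAs tested, and their median log2FC was -0.11 against 0.01. At an unadjusted p under 0.05, 18 subunits (35.3%) were lower and 1 was higher, whereas 9.52% of all mRNAs were lower at that level. Of the inhibitory subunits tested, 20 of 25 had a log2FC below 0 with a median of -0.15, and 4 passed the test. Of the glutamate receptor subunits, 18 of 26 had a log2FC below 0 with a median of -0.09, and 2 passed. Whether the inhibitory and the glutamate receptor subunits differed in their response was not tested.

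**Figure D2:**
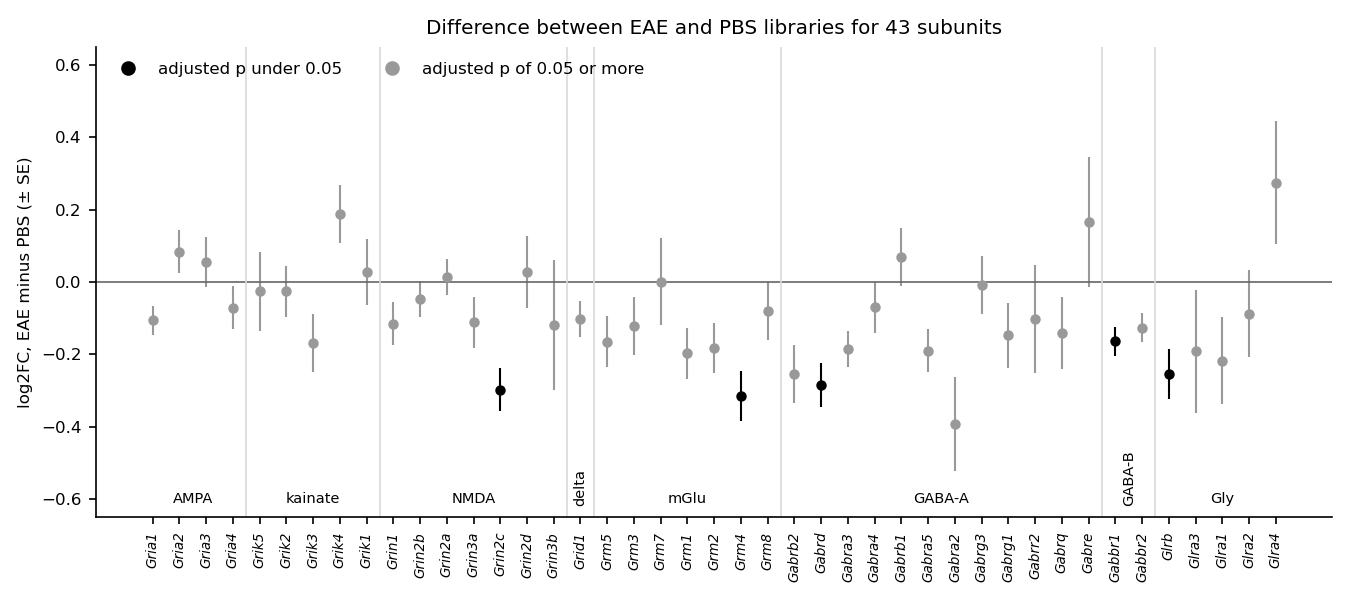
Log2FC of EAE against PBS libraries with its SE for 43 subunits, in order of receptor class and of PBS level within the class, in black where the adjusted p was under 0.05. The 5 black points all lie below 0, between -0.32 and -0.16, and Gabra6, Grm6, Gabrr1 and Gabrr3 are not drawn because their SE was 0.43 or more.

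Levels were compared between genes in FPKM, which is per length. Gabbr1 had the highest PBS mean of the 52 subunits (216 FPKM), followed by Gria1 (151 FPKM), Grin1 (102 FPKM) and Gria2 (94.3 FPKM). In PBS libraries 31 subunits had a mean above 10 FPKM and 36 were above Tmem119, a microglial marker, which had 7.44 FPKM. Tmem119 was only 1 of the 17 microglial markers, which together summed to a PBS median of 249.7 FPKM. The count of 36 therefore does not hold for microglial markers in general. Another 8 subunits were under 1 FPKM. Gabrp, the pi subunit of GABA-A receptors, was the 1 subunit below the count minimum, with 3 counts in EAE 5, 1 count in EAE 1 and in PBS 5, and 0 in the other libraries. Gabra6, the alpha6 subunit known from cerebellar granule neurons, had at most 4 counts in an EAE library and 7 in a PBS library. Grm6, the receptor of retinal ON bipolar cells, had at most 9 counts in any library. A list of 11 hindbrain genes, mostly Hox genes, was likewise scarce, with a sum of at most 0.272 FPKM in any library and 5 of its genes at no more than 3 counts anywhere.

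**Figure D3:**
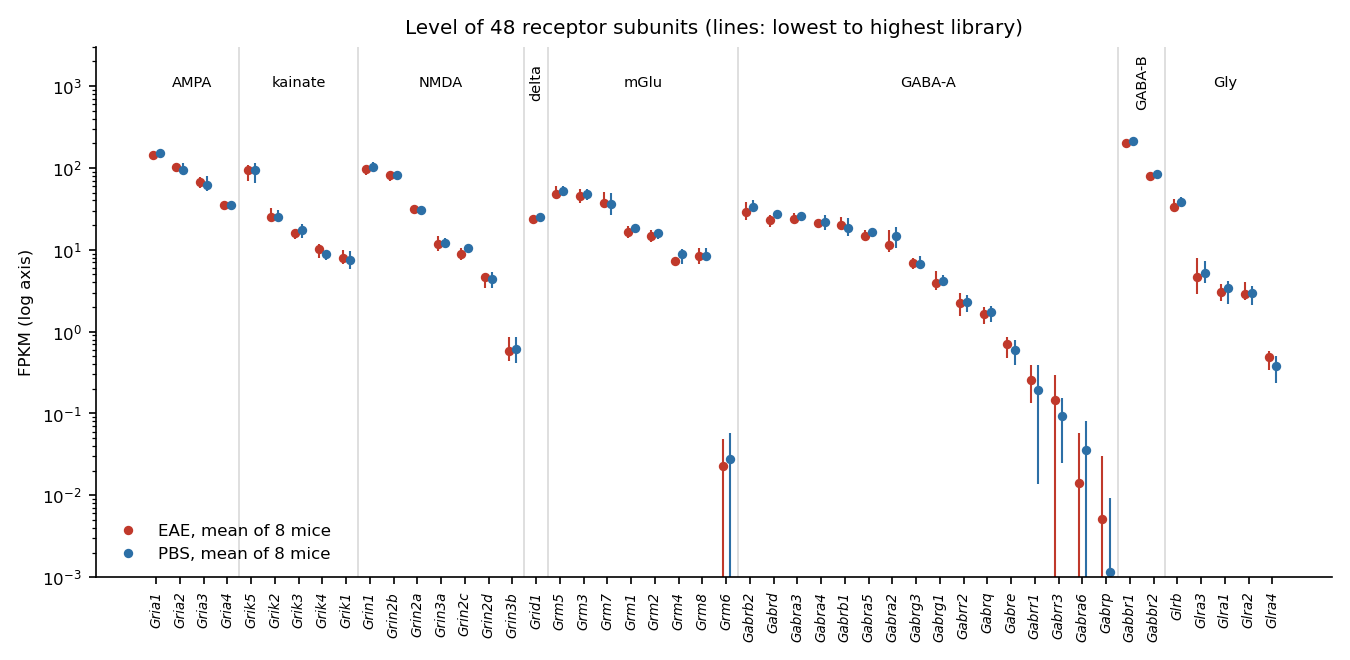
FPKM of 48 subunits on a log axis by receptor class, with the mean of 8 EAE and 8 PBS libraries as points and the lowest to highest library as lines, which are cut at the lower axis limit where a library was at 0. Gabbr1 stands highest at 199 and 216 FPKM, and Gabra6, Grm6, Gabrr3 and Gabrp lie lowest with means of 0.145 FPKM or less.

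Among NMDA receptor subunits, Grin2c was lower in EAE mice and the remaining 6 did not pass the test. Grin2c encodes GluN2C, a glutamate-binding subunit best known from cerebellar granule neurons and also found in thalamus and astrocytes. Its FPKM was 7.59 at the lowest, 8.58 at the median and 10.5 at the highest in EAE libraries, and 9.84, 10.4 and 11.3 in PBS libraries. Of 8 EAE libraries, 6 lay below every PBS library, and EAE 4 and EAE 5 lay within the PBS range. Grin2c fell by 18.6%, with a log2FC of -0.30 (SE 0.06, edgeR quasi-likelihood adjusted p = 0.00969), and it passed in all 16 fits that left out 1 library. An exon of the small gene Gm25837 overlaps it on the opposite strand, and the strand setting of the counting is not given in the sources used here. Grin1, the obligatory GluN1 subunit, was the most abundant of the class, with a log2FC of -0.11 and an adjusted p of 0.375 from the edgeR fit. Grin2a and Grin2b encode the GluN2A and GluN2B subunits, whose balance shifts during development. The ratio of Grin2a to Grin2b was 0.382 ± 0.0185 in EAE mice against 0.366 ± 0.0299 in PBS-treated mice (SD, n = 8), and both groups overlapped.

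AMPA receptor subunits held the largest share of glutamate receptor RNA, and none of the 4 passed the test. Gria1 and Gria2 encode GluA1 and GluA2, of which GluA2 makes the channel nearly impermeable to calcium. Gria1 was 132 FPKM at the lowest, 146 at the median and 153 at the highest in EAE libraries, against 139.8, 149.7 and 160.1 in PBS libraries. Gria2 was 88.5, 105 and 113 FPKM in EAE libraries, against 83.1, 93.2 and 113 in PBS libraries. The groups overlapped for both genes, with log2FC values of -0.11 for Gria1 (adjusted p = 0.166, edgeR) and 0.08 for Gria2 (adjusted p = 0.476, edgeR). The ratio of Gria1 to Gria2 was 1.40 ± 0.0562 in EAE libraries against 1.61 ± 0.139 in PBS libraries, with ranges of 1.34 to 1.49 and of 1.41 to 1.82. In this ratio 5 EAE libraries lay below every PBS library and the other 3 in the lower part of the PBS range. The ratio is a description and was not tested.

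None of the 5 kainate and 2 delta receptor subunits passed the test. Grik5, the GluK5 subunit, was the most abundant of the kainate class at 93.1 FPKM in PBS libraries, with a log2FC of -0.03. Grik4, the GluK4 subunit, had the smallest p among the subunits with a log2FC above 0. It was 7.94 FPKM at the lowest, 10.6 at the median and 11.7 at the highest in EAE libraries, against 7.59, 8.68 and 9.93 in PBS libraries. All EAE libraries but EAE 5 were above the PBS median, EAE 5 was below it, and the groups overlapped. Its log2FC was 0.19 (SE 0.08) with an edgeR adjusted p of 0.192, and in the fits that left out 1 library that adjusted p ranged from 0.0405 without EAE 5 to 0.347 without EAE 8. Grid1 encodes a delta subunit, of a class that binds cerebellins rather than acting as ordinary glutamate-gated channels. Its log2FC was -0.10, with an edgeR adjusted p of 0.291.

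Among the 8 metabotropic glutamate receptors, Grm4 was lower in EAE mice, and 7 of the 8 had a log2FC below 0. Grm4 encodes mGlu4, a presynaptic receptor that lowers transmitter release. Its FPKM was 6.86 at the lowest, 7.30 at the median and 7.73 at the highest in EAE libraries, and 6.62, 9.16 and 10.2 in PBS libraries. All 8 EAE libraries lay in a narrow band below the PBS median, and PBS 4 lay below all of them while PBS 3 and PBS 6 were close to the highest EAE libraries. Grm4 fell by 19.6%, with a log2FC of -0.32 (SE 0.07, edgeR adjusted p = 0.0272). It passed in 9 of the 16 fits that left out 1 library and missed the threshold without EAE 1, 2 or 6 or PBS 2, 5, 7 or 8, at adjusted p-values of 0.0509 to 0.0633. The most abundant of the class were Grm5, the mGlu5 receptor of excitatory synapses, and Grm3, the mGlu3 receptor that astrocytes also carry, at 51.9 and 47.7 FPKM in PBS libraries. Their log2FC values were -0.16 and -0.12, and neither passed.

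Among GABA-A receptor subunits, 14 of the 18 tested had a log2FC below 0 and 2 were lower in EAE mice, Gabrd among them. Gabrd encodes the delta subunit of extrasynaptic receptors that carry tonic inhibition. It was 18.8 FPKM at the lowest, 23.3 at the median and 26.6 at the highest in EAE libraries, and 25.0, 27.5 and 29.1 in PBS libraries. All EAE libraries but EAE 4 lay below every PBS library, and EAE 4 alone reached the PBS range. Gabrd fell by 17.9%, with a log2FC of -0.28 (SE 0.06, edgeR adjusted p = 0.0175), and it passed in all 16 fits that left out 1 library.

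**Figure D4:**
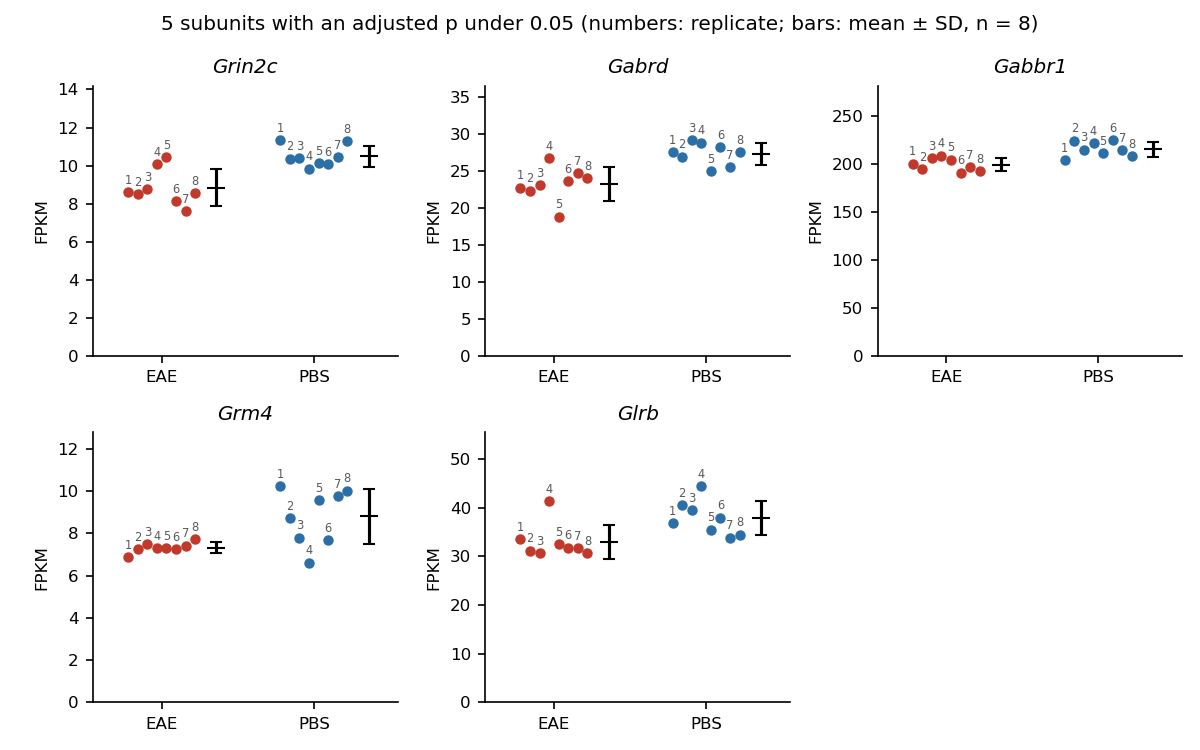
FPKM per library of 5 subunits with an adjusted p under 0.05, labelled by replicate number, with the mean ± SD of 8 libraries beside each group and every axis starting at 0. EAE 4 lies within the PBS range for Gabrd and Glrb, at 26.6 and 41.3 FPKM, and PBS 4 is the lowest of all libraries for Grm4 at 6.62 FPKM.

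Other GABA-A subunits did not pass. Gabrb2, the beta2 subunit, had a log2FC of -0.25. For Gabrb2, 6 EAE libraries were below every PBS library, and its edgeR adjusted p was 0.116. Several GABA-A genes lie in clusters, and neighbours were compared by position. In the cluster on chr5:70751047-72149572 (GRCm38.p6), the log2FC was -0.15 for Gabrg1, -0.39 for Gabra2, -0.07 for Gabra4 and 0.07 for Gabrb1. The neighbours of this cluster therefore had estimates of both signs, and none of them passed. This does not hold for every cluster. Gabrb2 lies in the cluster on chromosome 11, whose 4 subunits all had a log2FC below 0, with Gabra6 at very few counts. Gabra4 and Gabrb1 overlap in an exon on opposite strands, so that their counts may be uncertain. The log2FC was -0.01 for Gabrg3 and -0.19 for Gabra5. On the X chromosome it was 0.17 for Gabre, -0.19 for Gabra3 and -0.14 for Gabrq. Gabrd lies apart from the clusters, on chr4:155384979-155398098.

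The GABA-B receptor was represented by both of its subunits, and Gabbr1 was lower in EAE mice. Gabbr1 encodes the subunit that binds GABA, and Gabbr2 the one that couples to the G protein. Gabbr1 was 191 FPKM at the lowest, 199 at the median and 209 at the highest in EAE libraries, and 204, 215 and 225 in PBS libraries. All 8 EAE libraries were below the PBS median and 5 were below every PBS library. Gabbr1 fell by 10.7%, with a log2FC of -0.16 (SE 0.04, edgeR adjusted p = 0.0264), and it passed in 11 of the 16 fits that left out 1 library. It missed the threshold without EAE 1, 2 or 6 or PBS 2 or 3, at edgeR adjusted p-values of 0.0507 to 0.0646. For Gabbr2, all 8 EAE libraries were also below the PBS median, with a log2FC of -0.13 and an edgeR adjusted p of 0.0910.

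Among glycine receptor subunits, Glrb was lower in EAE mice. Glrb encodes the beta subunit, which binds the scaffold gephyrin and is widely expressed in the brain, and it held 76.0% of the FPKM of its class in PBS libraries. It was 30.6 FPKM at the lowest, 31.8 at the median and 41.3 at the highest in EAE libraries, and 33.8, 37.3 and 44.3 in PBS libraries. As for Gabrd, 7 EAE libraries lay below every PBS library, and EAE 4 lay in the upper part of the PBS range. Glrb fell by 16.1%, with a log2FC of -0.25 (SE 0.07, edgeR adjusted p = 0.0454), and it passed in 4 of the 16 fits that left out 1 library. These were the fits without EAE 4, EAE 5, PBS 7 or PBS 8, and in the other 12 the edgeR adjusted p was 0.0505 to 0.101. The alpha subunits, which complete the channel, were at 0.384 to 5.19 FPKM in PBS libraries and did not pass. Glra4 had the highest estimate of them, with a log2FC of 0.27 and an edgeR adjusted p of 0.414.

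Genes that make, carry or answer to the same transmitters were listed by role. Of 7 genes of GABA synthesis and transport, 5 were lower in EAE mice and none was higher. Gad1, which makes GABA from glutamate, was 35.4 FPKM at the lowest, 41.0 at the median and 43.0 at the highest in EAE libraries, and 42.9, 57.0 and 66.0 in PBS libraries. Only the ends of these ranges met, and the log2FC was -0.53 (SE 0.08, edgeR adjusted p = 0.00309). Slc32a1, the vesicular GABA transporter, had a log2FC of -0.47 (SE 0.07, edgeR adjusted p = 0.00233). Slc6a11, the GABA transporter GAT3 of astrocytes, had a log2FC of -0.35 (SE 0.08, edgeR adjusted p = 0.0232). Abat, the enzyme that breaks GABA down, had a log2FC of -0.22 (SE 0.05, edgeR adjusted p = 0.0277). Gad1 and Slc32a1 passed in all 16 fits that left out 1 library. Slc6a11 missed the threshold in 4 of them (without EAE 1, 2 or 6 or PBS 2, at edgeR adjusted p-values up to 0.0603), and Abat in 9 (without EAE 1, 2, 3, 6 or 8 or PBS 2, 3, 5 or 7, at up to 0.0690). Gad2 and Slc6a13 did not pass. Slc12a5, the neuronal chloride extruder KCC2, had a log2FC of -0.19 (edgeR adjusted p = 0.0309), and the other chloride cotransporter listed, Slc12a2, did not pass. Slc12a5 missed the threshold in 8 of the 16 fits (without EAE 1, 2 or 3 or PBS 2, 3, 5, 7 or 8), at edgeR adjusted p-values up to 0.0778.

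**Figure D5:**
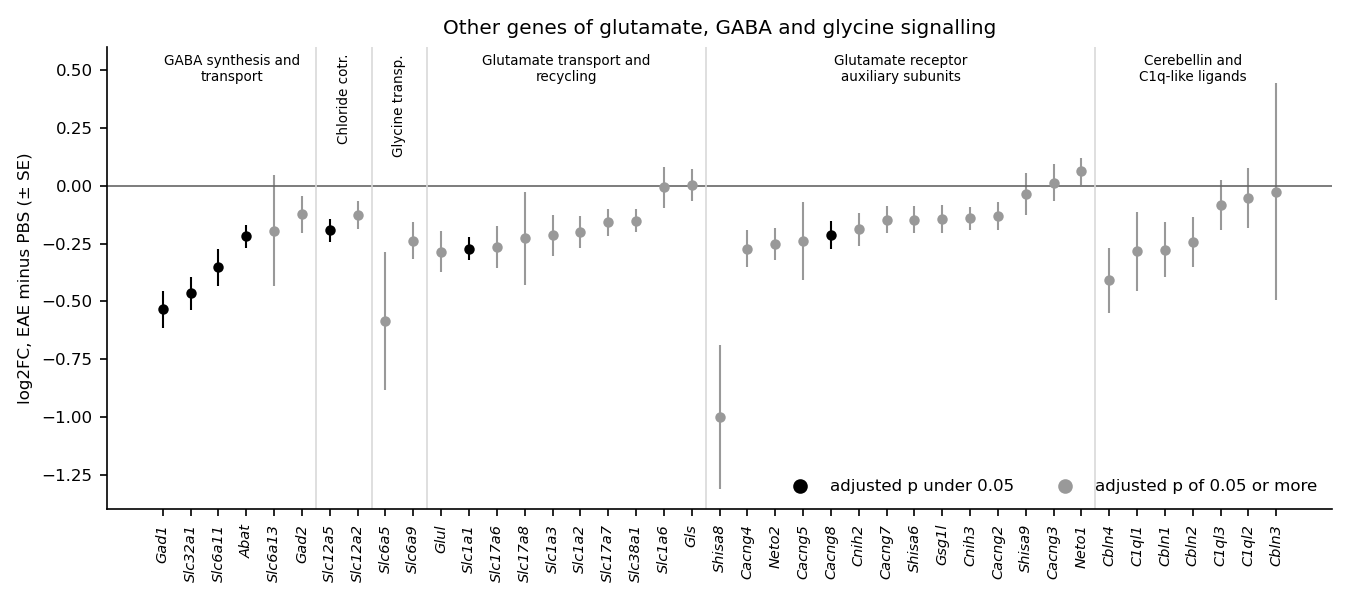
Log2FC of EAE against PBS libraries with its SE for 41 genes of 6 role lists, in black where the adjusted p was under 0.05. In the list of GABA synthesis and transport 4 of the 6 genes drawn are black, between -0.53 and -0.22, and in the remaining lists Slc12a5, Slc1a1 and Cacng8 are black.

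On the glutamate side, 1 of 10 genes of transport and recycling was lower. This was Slc1a1, the neuronal glutamate transporter EAAC1, with a log2FC of -0.27 (SE 0.05, edgeR adjusted p = 0.00898). Of 14 auxiliary subunits of glutamate receptors, 12 had a log2FC below 0 and Cacng8, a transmembrane AMPA receptor regulatory protein, passed with a log2FC of -0.21 (SE 0.06, edgeR adjusted p = 0.0489). Slc1a1 passed in all 16 fits that left out 1 library, and Cacng8 missed the threshold in 10 (all but those without EAE 4, 5, 7 or 8 or PBS 4 or 6), at edgeR adjusted p-values up to 0.102. None of 18 excitatory scaffold genes, 11 inhibitory auxiliary and anchoring genes, 2 glycine transporters or 7 cerebellin and C1q-like ligands passed with edgeR, with 2, 0, 1 and 3 of them lower at an unadjusted p under 0.05. DESeq2 called 1 of the scaffold genes lower and 0 of the genes in the other 3 lists.

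Marker lists of cell types and brain regions were set beside the 6 lower subunits as values. Whether the subunits varied with any list from library to library was not tested. Of 15 neuronal markers 13 had a log2FC below 0, and their sum ranged from 1372 to 1773 FPKM in EAE libraries against 1672 to 1925 in PBS libraries. Of 10 striatal genes 9 had a log2FC below 0, and 3 were lower in EAE mice, Ppp1r1b and Adora2a among them. Their sum ranged from 198 to 276 FPKM in EAE libraries against 278 to 329 in PBS libraries, so that the groups did not overlap. Of 12 cortical and hippocampal genes and of 10 thalamic genes none passed with edgeR. At an unadjusted edgeR p under 0.05, 1 cortical and hippocampal gene was lower and 2 were higher, beside 0 thalamic genes in either direction. Of 12 astrocyte markers Gfap was higher and Fgfr3 and Slc4a4 were lower, with sums of 796 to 1239 FPKM in EAE libraries against 895 to 1096 in PBS libraries. Of 15 neutrophil genes 5 were higher, with sums of 54.2 to 104 FPKM in EAE libraries against 23.3 to 59.6 in PBS libraries. With the neuronal sum as a covariate in the edgeR fit, 0 subunits and 0 of all mRNAs passed, with 3 subunits lower and 1 higher at an unadjusted p under 0.05. In that fit Gabrd had a log2FC of -0.10 while Grin2c and Grm4 had log2FC values of -0.36 and -0.40. The covariate comes from the same libraries, ran lower in EAE libraries and left 0 calls among all mRNAs. This fit therefore cannot separate the neuronal content from the group. The part of the makeup of cells or of brain regions in the differences of the subunits was not tested.

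The number of lower subunits depended on which libraries were used. It ranged from 2 to 14 when 1 library was left out, with 14 without EAE 4 and 2 without EAE 1, EAE 2, EAE 6 or PBS 2, and the share of all mRNAs that were lower ranged from 0.583% to 4.57% in the same fits. Without EAE 4 and EAE 5 together, left out after their values had been seen, 15 subunits were lower and Grik4 was higher, beside 7.79% of all mRNAs lower and 5.38% higher. Among the 6 libraries with the most similar profiles in an earlier look at these data (EAE 6, 7 and 8 and PBS 5, 7 and 8), 15 of 50 subunits (30.0%) were lower, beside 13.1% of all mRNAs, and 6 (12%) were higher, beside 11.0% of all mRNAs. The share of higher subunits was thus near that of all mRNAs. Choosing libraries for their likeness makes the spread within each group small. The adjusted p-values of this fit are therefore too low, and its calls are a description only. Those higher included Gria2, Gria3, Grik4, Grin2a and Grm7, with log2FC values of 0.14 to 0.34. The 15 lower ones included 5 of the 6 subunits lower over all libraries, the exception being Gabrd at a log2FC of -0.14 (edgeR adjusted p = 0.0677). Among the remaining 10 libraries 0 subunits passed with edgeR, and 18 were lower and 0 higher at an unadjusted p under 0.05, a level that 1892 of 17461 mRNAs passed in either direction. There Gabrd had a log2FC of -0.38 and Grin2c one of -0.23.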

How the data were processed

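RNA of 16 mice, 8 per group, was sequenced from stranded total RNA libraries after removal of ribosomal RNA. The authors aligned the reads to GRCm38 with HISAT2 2.1.0 and deposited raw counts per mRNA made with HTSeq 0.11.2; the strand setting of the counting is not given in the sources used here. The authors also deposited FPKM values, which were computed from these counts (the ratio of the scaled counts to FPKM was constant over the libraries to a relative spread of 3.6e-10 over 7749 mRNAs). Both tables were read by sample label, and 0 columns of sample values were left unused. The deposited files give 1 library per mouse.

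The quasi-likelihood test of edgeR 4.0.16 (R 4.3.3) was run, two-sided, on the TMM-normalized counts of all 17885 mRNAs with at least 16 counts in total, with Benjamini-Hochberg adjustment over all of them and the condition as the only term. FPKM served for levels, sums and ratios, without tests. Depth limits the scarcest subunits, since with 0 counts an expectation of up to 3 is still possible (95% limit, counting error only). On simulated counts for 17781 genes with EAE and PBS group sizes, 31% of genes changed by 0.3 on the log2 scale were called. Of these calls 1.59% were false. For a change of 1 over 17758 genes, 96% were called and 3.03% of calls were false. Only genes with a mean above 50 counts were changed, and libraries were drawn independently with a spread set for each gene. Likeness between libraries was not simulated, so these rates may not hold for the real libraries. Libraries were compared pairwise within each group. The 6 pairs among EAE 6, 7 and 8 and among PBS 5, 7 and 8 differed by 3.1 to 4.02 times the counting noise and the other 50 pairs by 6.07 to 24.6 times, and none was counted as a duplicate.

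The members, lists, motifs and alternative settings were chosen with earlier results of these data known. Genes were named where they passed the test (for each role list up to 3), where they had the 4 smallest unadjusted p-values of either direction, where they led their receptor class or belonged to a ratio, and where they were below the count minimum. Other genes were named for their place in a gene cluster, their low level or to complete a count, after their values had been seen. Whether replicate numbers pair the mice was checked by correlating deviations from the group means over 13952 mRNAs: same-numbered libraries correlated at -0.252 to 0.594, with 3 of 8 pairs above 0.1, so the numbers were not used for pairing. Alternatives were DESeq2 1.42.0, other normalization, filters, tests and terms, and subsets of libraries. Exon overlaps came from GENCODE annotation of GRCm38, and gene positions and promoters from RefSeq GRCm38.p6. Some genes that enter the counts and sums are not reported here by name.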

Additional observations from a re-analysis of the deposited data

Results flagged for a closer look

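A library was singled out where its gap to the next one was a larger part of the range of its group of 8 than the 95% critical value of Dixon's test allows, which chance gives in about 1 in 20 groups, or 5%. Of 104 groups examined (named genes, lists and ratios), 9 held such a library.

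EAE 4 was the highest EAE library in 4 of them. It had 17.3 FPKM of Gabra2 against 12.2 in the next EAE library, 41.3 of Glrb against 33.5 and 59.9 of Grm5 against 48.5, and its cerebellin and C1q-like ligands summed to 44.6 FPKM against 34.8. These 4 measures come from the same library and are not independent. Without EAE 4, 14 subunits were lower in EAE mice in the edgeR fit, beside 4.57% of all mRNAs.

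EAE 5 stood apart in the other direction for Grin2b, at 69.6 FPKM against 81.7 in the next lowest EAE library, and for the striatal genes, whose sum was 198 FPKM against 243. Its ratio of Grin2a to Grin2b was accordingly the highest of its group, at 0.423 against 0.391. EAE 5 also had the lowest neuronal sum of any library (1372 FPKM) and the highest astrocyte sum (1239 FPKM). For Gabrp, 0.0300 FPKM in EAE 5 and 0.00926 FPKM in PBS 5 were the highest of their groups, but these rest on 3 counts and 1 count. The part of any property of these libraries in the values was not tested.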

How the results depend on the processing

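The next counts cover the tested genes named by the rule given above, and not genes named otherwise, such as Abat, Slc6a11 and Gabrb2. With 1 library left out, 346 values kept their direction and their side of the threshold, 42 lost the call, 6 gained it and 6 changed sign. Under the other settings these numbers were 270, 26, 21 and 8. Lower subunits numbered 11 with DESeq2, 0 with the neuronal sum as a covariate, 15 among the 6 libraries most alike, 0 among the remaining 10, 13 without EAE 4 and PBS 4 together and 15 without EAE 4 and EAE 5 together (the last 2 settings were chosen after seeing the data), and 2 to 14 with 1 library left out. The share of all mRNAs that were lower moved too, to 3.37%, 0%, 13.1%, 0.0286%, 4.55%, 7.79% and 0.583% to 4.57% in the same order, against 1.76% over all libraries. Higher subunits numbered 6 among the 6 libraries, where 11.0% of all mRNAs were higher, 1 without EAE 4 and EAE 5, and 0 to 1 with 1 library left out. The 6 libraries were chosen for their likeness, so that their adjusted p-values are too low. The number of lower subunits was 6 or 7 under RLE normalization, the exact test, either filter and a robust fit. In these settings 1.49% to 2.71% of all mRNAs were lower. With a term for the 2 sets of libraries 8 subunits were lower, beside 2.94% of all mRNAs. The replicate numbers were not shown to pair the mice (2 of 8 EAE libraries correlated best with their own number). With the replicate block 8 subunits were lower, 5 of them among the 6 called without it, and Gabbr1 had an adjusted p of 0.0570 in this edgeR fit. The calls of DEmRNAs stayed at 0 in every setting run.

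Of the role lists, auxiliary subunits of glutamate receptors had 3 lower genes with DESeq2 and with the term for the sets, 4 with the exact test and in both settings that left out EAE 4, 10 among the 6 libraries, 0 with RLE, either filter setting, the covariate and the remaining 10, and 0 to 4 with 1 library left out. Glutamate transport had 2 with DESeq2 and the exact test, 3 with the term, 4 and 6 without EAE 4 and PBS 4 or EAE 5, 6 among the 6 libraries, 0 with the covariate and the remaining 10, and 1 to 5 with 1 library left out. GABA synthesis and transport had 0 with the covariate and the remaining 10, and 3 to 5 with 1 library left out; chloride cotransporters had 0, 0 and 0 to 1, and 2 among the 6 libraries. Those 6 libraries also gave 4 lower and 2 higher inhibitory auxiliary, 4 lower (1 with DESeq2) and 3 higher scaffold, 2 lower glycine transport, 3 lower and 1 higher cerebellin, and 1 higher glutamate auxiliary gene. Outside them, 1 inhibitory auxiliary gene was higher without PBS 4, alone or with EAE 4, and 1 scaffold gene without EAE 4 and EAE 5. Glycine transport had 1 with the term and in both settings without EAE 4, and 0 to 1 with 1 library left out, and cerebellins had 1 and 2 without EAE 4 and PBS 4 or EAE 5, and 0 to 2.

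Small estimates changed sign. With the covariate the log2FC was -0.03 for Grin2a and 0.01 for Grm3; among the 6 libraries it was 0.05 for Grid1, 0.04 for Grik5, 0.01 for Grin2b and 0.02 for Grm3; among the remaining 10 it was -0.07 for Grin2a; without EAE 4 and EAE 5 it was 0.08 for Grik5. With 1 library left out Grik5 ranged from -0.08 to 0.03 and Grin2a from -0.01 to 0.04. The causes of these changes were not tested. Depth limits only the subunits with few counts, such as Gabra6, Grm6 and Gabrp.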

Other observations

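The region lists gave values for neurons that some subunits are known from. Genes of cerebellar granule neurons summed to a median of 42.8 FPKM in EAE libraries and 41.9 in PBS libraries, of which Tiam1, not particular to them, made up 23.6 and 23.3 FPKM on average, while Fat2 and Barhl1 were at means of 0.133 to 0.234 FPKM. Cortical and hippocampal genes summed to 809.6 and 836 FPKM, and thalamic genes to 58.0 FPKM in both groups. Of the 10 granule neuron genes, 10 Purkinje neuron genes, 12 cortical and hippocampal genes and 10 thalamic genes, 0 passed the edgeR test. At an unadjusted edgeR p under 0.05, 2, 2, 1 and 0 of them were lower and 0, 0, 2 and 0 were higher. DESeq2 called 1, 0, 0 and 0. Oligodendrocyte markers summed to medians of 1017 and 1128 FPKM in EAE and PBS libraries, oligodendrocyte precursor markers to 167 and 189 FPKM, and endothelial markers to 61.3 and 63.2 FPKM. With edgeR 0 genes of these 3 lists passed, and DESeq2 called 1, 0 and 0. At an unadjusted edgeR p under 0.05, 3, 2 and 0 of them were lower and 1, 0 and 0 were higher.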
